A study of Homo sapiens with 6 samples.

Results

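The subject is 10 genes of the TGF-beta pathway in cells of the human pancreatic cancer line L3.6pl, chosen by symbol: the ligands TGFB1 and TGFB2, the receptors TGFBR1 and TGFBR2, the signal transducers SMAD2, SMAD3 and SMAD4, and the inhibitory feedback genes SMAD7, PMEPA1 and SKIL. All 10 have a row in the table of 19469 genes. L3.6pl is an established line, untreated here and grown in serum, and the study sorted it by FACS on surface L1CAM, an adhesion molecule, into a fraction labelled L1CAM_POSITIVE (L1high below) and a fraction labelled L1CAM_NEGATIVE (L1low below). The label of the cell line reads L6.6pl where the sample titles read L3_6PL, and the labels give both pancreatic ductal adenocarcinoma and pancreatic adenosquamous carcinoma. RNA of each fraction was sequenced in 3 libraries to find which transcripts differ between the fractions. The labels do not say whether these came from separate cultures or sorts, so the p-values measure the spread between these libraries, which may be technical. Both fractions are 1 line, and a bulk level cannot tell more expressing cells from more RNA per cell.

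TGF-beta ligands are secreted in a latent form, and once freed they bind TGFBR2, a receptor kinase that recruits and activates TGFBR1. TGFBR1 phosphorylates SMAD2 and SMAD3, which join SMAD4, enter the nucleus and change transcription. Among the genes they induce are inhibitors of the same pathway: SMAD7 blocks and degrades the receptor, PMEPA1 keeps SMAD2 and SMAD3 from the receptor complex, and SKIL encodes SnoN, a corepressor that binds SMADs. In pancreatic cancer the pathway is known both for growth arrest of epithelial cells and for invasion and matrix production.

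In L1low cells 5 of the 10 genes were higher and none was called lower. They were the ligand gene TGFB1, the receptor gene TGFBR2, the transducer gene SMAD3 and the feedback genes SMAD7 and PMEPA1. The feedback genes rose most, by log2 fold changes of 1.02 (SMAD7) and 0.83 (PMEPA1), and the others by 0.32 to 0.46. TGFB2, TGFBR1, SMAD2, SMAD4 and SKIL did not pass the test. Calls were made with edgeR (quasi-likelihood F-test) at a Benjamini-Hochberg adjusted p below 0.05, the adjustment running over every gene of the table. Fold changes are L1low over L1high, so values above 0 are higher in L1low cells. The comparison was made over the 5 libraries of the study's own table, which leaves out L1high replicate 3 without a stated reason, and then over all 6. Of all 19469 genes, 859 (4.41%) were called higher and 614 (3.15%) lower in L1low cells, together 7.57%. Over all 6 libraries 7.95% of genes were called, and the same 5 of the 10 members were called higher. Single libraries weighed on these counts: 3 members and 551 genes were called without L1low replicate 2. Without L1low replicate 1 there were 5 members and 1638 genes, and without L1low replicate 3 there were 6 members and 1649 genes. Over the 6 libraries without L1high replicate 1 the counts were 3 members and 674 genes, and without L1high replicate 2 they were 5 members and 1278 genes. Leaving L1high replicate 1 or 2 out of the 5 libraries leaves a single L1high library, so no calls are given for those fits. The median log2 fold change of the 10 genes was 0.28 over 5 libraries and 0.31 over 6, and that of all genes was 0.0016 and -0.0087.

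Library totals ran from 16334610 to 21064685 counts. The sorting marker L1CAM stood at 69.8 to 89.5 CPM (read counts relative to the library total, adjusted by TMM factors over the 6 libraries) in L1high libraries and at 17.7 to 23.7 in L1low libraries. The 5 epithelial markers looked up (EPCAM, CDH1, KRT8, KRT18 and KRT19) all had a row, with a summed level of 2696 to 3069 CPM in L1high and 3045 to 3233 in L1low libraries. They did not move together: KRT19 was called higher (log2 fold change 0.69) and EPCAM lower (-0.37, adjusted p = 0.013), and KRT8 (-0.15) and CDH1 (-0.03) were not called, although their L1low libraries all lay below the L1high libraries. Of the 3 squamous or basal genes looked up, TP63, a transcription factor of basal epithelium, was called higher (1.09), at 283 to 314 CPM in L1high and 614 to 668 in L1low libraries. The basal keratin gene KRT14 was also called higher (0.501) and KRT5 was not (0.14), and the L1low libraries of all 3 lay above the L1high libraries. The part of these epithelial and basal genes in the results below was not tested. Of 10 fibroblast and stellate cell genes 7 had no row in the table analysed here, PDGFRA, PDGFRB, COL1A2, DCN and FAP among them, and every gene of the table reaches at least 1.02 CPM, by library totals alone, in its second-highest library. The other 3 (LUM, ACTA2 and COL3A1) summed to 86.7 to 98.5 CPM in L1high and 140 to 160 in L1low libraries, mostly from LUM, the gene of the matrix proteoglycan lumican, which was called higher (log2 fold change 0.75). Of 7 immune and endothelial genes 5, PTPRC and VWF among them, had no row, and neither of the other 2 (CD68 and PECAM1, summed to 19.7 to 20.7 CPM in L1high and 23.2 to 24.5 in L1low libraries) was called. Of 10 stress and immediate early genes that cell sorting can induce, 5 were called higher and none lower, with ATF3 (0.504) and FOSB (0.46) the largest. Their summed level ran from 7169 to 7679 CPM in L1high and from 9039 to 9618 in L1low libraries, and its part in the results below was not tested. Of 10 proliferation genes 4 were called lower, CDK1 (-0.68), PCNA (-0.51), CCNA2 (-0.45) and BUB1 (-0.31), and their part was not tested either.

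Of the ligand genes, TGFB1 was called higher and TGFB2 was not. TGFB1 (ENSG00000105329, chromosome 19 from 41301587 to 41353922, minus strand, on GRCh38) stood at 108, 107 and 110 CPM in L1high replicates 1, 2 and 3 and at 123, 135 and 142 in L1low replicates 1, 2 and 3. All 3 L1low libraries lay above all 3 L1high libraries, and the mean was 23.1% higher. Over 5 libraries this was a log2 fold change of 0.32 with a standard error of 0.08 (adjusted p = 0.034), and over 6 one of 0.299 (adjusted p = 0.025). This call is marginal: TGFB1 was not called without L1low replicate 2 (adjusted p = 0.17) nor over the 6 libraries without L1high replicate 1 (0.12). With a term for replicate number in the fit over 5 libraries it was not called either (log2 fold change 0.27, adjusted p = 0.077). With L1high replicate 2 or 1 as the single L1high library, its log2 fold change was 0.33 and 0.31. Its log2 fold change lay between 0.27 and 0.37 under the 17 other settings tried. On the opposite strand TGFB1 shares 215 exonic bases with HNRNPUL1, whose counts were 11859 to 14943 against 1813 to 2522 for TGFB1. The paper describes the libraries as stranded, and the sources used here do not say whether the counting used strand. HNRNPUL1 itself had a log2 fold change of 0.11 (adjusted p = 0.37).

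TGFB2 (ENSG00000092969, chromosome 1 from 218345336 to 218444619, plus strand) stood at 118, 134 and 99.2 CPM in the L1high libraries and at 139, 125 and 113 in the L1low libraries, so the groups overlapped. Its log2 fold change of 0.011 had a 95% interval from -0.20 to 0.22, and over 6 libraries it was 0.11 (adjusted p = 0.60). The lncRNA gene TGFB2-OT1 lies on the same strand and shares 1371 exonic bases with TGFB2, so reads there can be assigned to either gene or to neither. TGFB2-OT1 had 447, 618 and 216 counts in L1high and 505, 539 and 282 in L1low libraries, with the lowest value of each group in replicate 3, as for TGFB2. The antisense gene TGFB2-AS1 held 60 to 92 counts in L1high and 82 to 98 in L1low libraries (log2 fold change 0.27, adjusted p = 0.402). The ratio of TGFB1 to TGFB2 counts within a library was 0.92, 0.797 and 1.11 in L1high and 0.88, 1.07 and 1.26 in L1low libraries. These overlapped (exact permutation test, two-sided, p = 0.5). With 3 libraries against 3 this test cannot give a p below 0.1, so it cannot establish a difference between the changes of the ligand genes.

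Of the receptor genes, that of the type II receptor rose. TGFBR2 (ENSG00000163513, chromosome 3 from 30606601 to 30694142, plus strand), the receptor that binds the ligand first, stood at 76.8, 81.9 and 75.4 CPM in L1high and at 109.8, 109.4 and 106 in L1low libraries. The lowest L1low library was well above the highest L1high library, and the mean was 39.1% higher. TGFBR2 had a log2 fold change of 0.46 with a standard error of 0.08 (adjusted p = 0.0034) over 5 libraries and 0.48 (adjusted p = 0.0012) over 6. It was called under every other setting that left more than a single L1high library. TGFBR1 (ENSG00000106799, chromosome 9 from 99104038 to 99154192, plus strand), the type I receptor kinase, stood at 33.9, 37.5 and 30.03 CPM in L1high and at 37.0, 37.5 and 32.0 in L1low libraries. These overlapped, and the log2 fold change of -0.0011 had a 95% interval from -0.23 to 0.23. Over 6 libraries it was 0.07 (adjusted p = 0.75).

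The ratio of TGFBR2 to TGFBR1 counts within a library, which no scaling between libraries can change, was 2.26, 2.18 and 2.51 in L1high and 2.97, 2.92 and 3.33 in L1low libraries. The groups did not overlap, with means of 2.32 ± 0.17 and 3.07 ± 0.22 (SD, n = 3). The exact permutation test, two-sided, gave p = 0.1, the smallest value 3 libraries against 3 allow. Such ratios were computed for 6 pairs of members, chosen after their levels were seen, so none can pass an adjustment over the pairs.

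SMAD3 rose and SMAD2 did not pass the test. SMAD3 (ENSG00000166949, chromosome 15 from 67063763 to 67195173, plus strand), a receptor-activated transducer that binds DNA directly, stood at 122, 117 and 122 CPM in L1high and at 146, 153 and 149 in L1low libraries. The groups did not overlap, and the mean was 24.2% higher in L1low cells. SMAD3 had a log2 fold change of 0.33 with a standard error of 0.07 (adjusted p = 0.018) over 5 libraries and 0.31 (adjusted p = 0.0103) over 6. It lost its call without L1low replicate 2 (adjusted p = 0.13) and over the 6 libraries without L1high replicate 1 (0.065). With L1high replicate 2 or 1 as the single L1high library, its log2 fold change was 0.36 and 0.31. The 17 other settings gave log2 fold changes from 0.29 to 0.36.

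SMAD2 (ENSG00000175387, chromosome 18 from 47808957 to 47931146, minus strand), the other transducer that TGF-beta receptors phosphorylate, stood at 56.1, 55.8 and 51.1 CPM in L1high and at 51.7, 51.9 and 46.6 in L1low libraries. Its log2 fold change of -0.15 had a 95% interval from -0.34 to 0.04 (adjusted p = 0.33). Under the 17 other settings it stayed between -0.18 and -0.09, with no call where more than a single L1high library was left. SMAD4 (ENSG00000141646, chromosome 18 from 51028528 to 51085045, plus strand), the partner of both, stood at 23.4, 22.7 and 18.2 CPM in L1high and at 23.2, 21.5 and 19.9 in L1low libraries. These overlapped, with a log2 fold change of -0.09 (95% interval from -0.33 to 0.15) over 5 libraries and 0.0029 over 6. SMAD4 shares 967 exonic bases with ENSG00000267699 on the same strand, which held 111 to 187 counts per library.

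Within a library, SMAD3 had 2.17, 2.10 and 2.39 counts for each count of SMAD2 in L1high cells and 2.82, 2.95 and 3.20 in L1low cells. The groups did not overlap (2.22 ± 0.16 against 2.99 ± 0.19, SD, n = 3, exact permutation p = 0.1, two-sided). The ratios of SMAD3 to SMAD4 and of SMAD2 to SMAD4 overlapped between the groups.

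**Figure D1:**
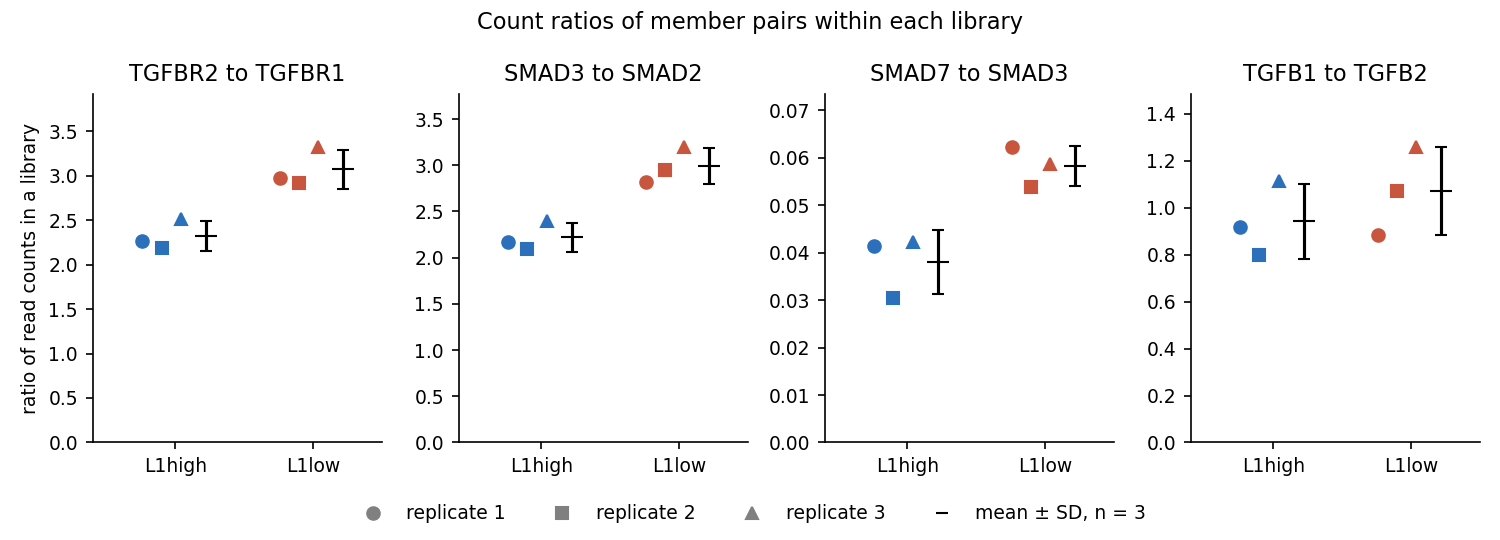
Ratio of the read counts of 2 members in each library (vertical axes, from 0), with a symbol for each replicate number and the mean ± SD (n = 3) in black. The ratios of TGFBR2 to TGFBR1, SMAD3 to SMAD2 and SMAD7 to SMAD3 do not overlap between L1high and L1low libraries, and that of TGFB1 to TGFB2 does.

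Among the feedback genes SMAD7 and PMEPA1 rose and SKIL was uneven. SMAD7 (ENSG00000101665, chromosome 18 from 48919853 to 48950965, minus strand), the inhibitory SMAD of this pathway, had 107, 73 and 85 counts in L1high and 165, 148 and 155 in L1low libraries. That is 5.04, 3.55 and 5.18 CPM against 9.08, 8.25 and 8.75, with no overlap and a mean 89.3% higher. Its log2 fold change of 1.02 over 5 libraries had a standard error of 0.18 (adjusted p = 0.0044), against 0.93 (adjusted p = 0.0044) over 6. L1high replicate 2, the lowest library, weighed on it: leaving that replicate out of the 5 libraries, with a single L1high library left, gave a log2 fold change of 0.79. Over the 6 libraries without L1high replicate 2 SMAD7 had a log2 fold change of 0.77 and was called. For each count of SMAD3 there were 0.038 ± 0.0067 counts of SMAD7 in L1high and 0.058 ± 0.0043 in L1low cells (SD, n = 3), without overlap (exact permutation p = 0.1, two-sided).

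PMEPA1 (ENSG00000124225, chromosome 20 from 57648392 to 57711536, minus strand) stood at 11.7, 13.5 and 13.1 CPM in L1high and at 20.4, 23.1 and 23.4 in L1low libraries. Every L1low library lay above every L1high library, with a mean 74.5% higher. Over 5 libraries PMEPA1 changed by 0.83 on the log2 scale with a standard error of 0.12 (adjusted p = 0.0013), and over 6 by 0.80 (adjusted p = 7.2e-04). It was called under every other setting that left more than a single L1high library. Under the 17 other settings its log2 fold change ran from 0.73 to 0.93. On the opposite strand the lncRNA gene NKILA shares 343 exonic bases with PMEPA1 and held 13, 6 and 14 counts in L1high and 22, 21 and 17 in L1low libraries (log2 fold change 1.29, adjusted p = 0.092).

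SKIL (ENSG00000136603, chromosome 3 from 170357342 to 170396835, plus strand) stood at 17.6, 22.9 and 16.0 CPM in L1high and at 27.0, 28.4 and 16.2 in L1low libraries. L1low replicate 3 thus lay within the L1high range, while L1low replicates 1 and 2 lay above it. The log2 fold change of 0.25 had a 95% interval from -0.19 to 0.68 (adjusted p = 0.49), and without L1low replicate 3 it was 0.46 and was called (adjusted p = 0.032).

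SKIL was not alone in its low replicate 3. In 6 of the 10 members (TGFB2, TGFBR1, TGFBR2, SMAD2, SMAD4 and SKIL) replicate 3 was the lowest library of both groups, as it was in 3716 of all 19469 genes (19.1%). The 5 libraries of the main comparison hold L1low replicate 3 and not L1high replicate 3. Adding the lowest L1high library lowers the L1high mean, so in these 6 members a more positive log2 fold change over 6 libraries follows from how they were picked. The log2 fold change went from 0.46 to 0.48 for TGFBR2 and from -0.15 to -0.12 for SMAD2. The labels do not say what the replicate numbers mark.

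**Figure D2:**
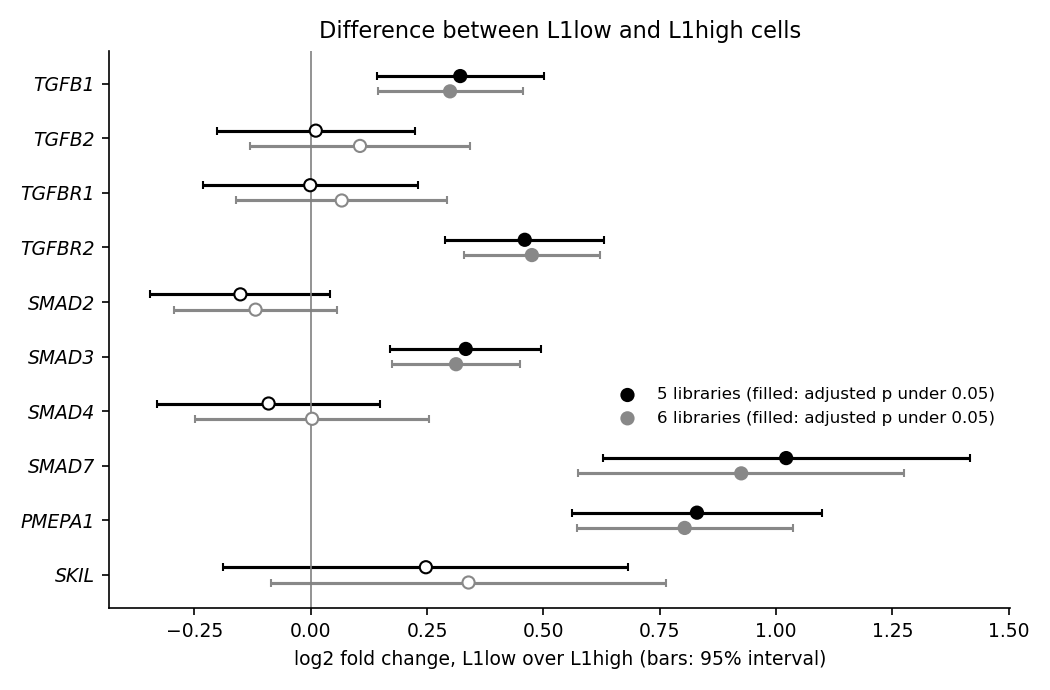
Log2 fold change of L1low over L1high cells for each member (horizontal axis) with its 95% interval, over 5 libraries (black) and 6 libraries (grey), where filled points are called genes. The same 5 genes are filled in both fits, and the intervals of TGFB2, TGFBR1, SMAD2, SMAD4 and SKIL span 0.

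By the overlap of single libraries, 5 of the 10 members had all L1low libraries on one side of all L1high libraries, each time above. Over all genes 28.8% had no overlap between the groups in either direction.

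To compare levels between genes, CPM was divided by the length of the canonical transcript of GENCODE in kilobases. TGFB1 was the highest in L1high cells (39.0 ± 0.67 CPM per kilobase, SD, n = 3), followed by TGFB2 (19.9 ± 2.96), SMAD3 (18.6 ± 0.44) and TGFBR2 (17.2 ± 0.76). The range of TGFB2 over the 3 libraries took in that of SMAD3 and overlapped that of TGFBR2, so the order of TGFB2 and these neighbours is not resolved. TGFBR1 came next (5.21 ± 0.58), then SKIL (2.63 ± 0.51), PMEPA1 (2.58 ± 0.19) and SMAD4 (2.44 ± 0.33), which overlapped one another, and SMAD7 was low (1.37 ± 0.27). In L1low cells TGFB1 was again the highest (48.0 ± 3.48), TGFBR2 (24.0 ± 0.43), SMAD3 (23.1 ± 0.58) and TGFB2 (21.5 ± 2.25) followed, and TGFBR1 (5.47 ± 0.47) and PMEPA1 (4.499 ± 0.33) came next. SMAD7 (2.60 ± 0.13) and SMAD4 (2.45 ± 0.18) overlapped there, while in L1high cells every library of SMAD7 lay below every library of SMAD4. The length given for SMAD2 is 34626 bases, far beyond that of the other members, so its value of 1.57 CPM per kilobase in L1high cells depends on that annotation. With the length of all exons merged, SMAD4 rather than SMAD7 had the lowest mean in L1high cells.

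The promoters were searched for letters that SMAD complexes bind and for the AP-1 letters, since FOSB and ATF3, whose products bind such sites, were called higher. RefSeq start sites gave 28 windows for the 10 members, each of 250 bases before to 50 bases after a start on GRCh38.p14. The letters CAGAC, a SMAD box, were found on either strand in 14 of the 28 windows and in 45.3% of 35116 promoter windows of all genes. The palindrome GTCTAGAC was in no member window and in 0.202% of all, and TGANTCA, the AP-1 letters, in 2 member windows and 7.71% of all. The members' windows thus hold these letters about as often as other promoters. In members that rose 10 windows hold a match. For each such member the window with the most matches is shown, and capitals mark the matched letters (GTCTG is CAGAC on the other strand). The 1 window of TGFB1 holds none. None of the marked CAGAC overlaps TGANTCA.
SMAD7, minus strand, chr18:48950916-48951215, with 2 matches to CAGAC: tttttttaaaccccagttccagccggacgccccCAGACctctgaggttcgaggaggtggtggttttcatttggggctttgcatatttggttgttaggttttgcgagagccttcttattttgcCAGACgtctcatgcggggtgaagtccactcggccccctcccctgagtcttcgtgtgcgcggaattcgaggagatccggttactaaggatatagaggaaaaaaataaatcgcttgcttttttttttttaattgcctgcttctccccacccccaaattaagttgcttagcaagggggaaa
PMEPA1, the third of its 4 listed starts, minus strand, chr20:57709966-57710265, with 2 matches to CAGAC facing each other: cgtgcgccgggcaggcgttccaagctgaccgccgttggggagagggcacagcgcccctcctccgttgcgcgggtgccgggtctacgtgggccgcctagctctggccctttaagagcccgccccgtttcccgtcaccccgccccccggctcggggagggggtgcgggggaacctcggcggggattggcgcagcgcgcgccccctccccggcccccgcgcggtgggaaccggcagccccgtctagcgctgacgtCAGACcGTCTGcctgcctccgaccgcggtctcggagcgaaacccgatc
TGFBR2, the second of its 2 listed starts, plus strand, chr3:30606351-30606650, with 1 match to TGANTCA: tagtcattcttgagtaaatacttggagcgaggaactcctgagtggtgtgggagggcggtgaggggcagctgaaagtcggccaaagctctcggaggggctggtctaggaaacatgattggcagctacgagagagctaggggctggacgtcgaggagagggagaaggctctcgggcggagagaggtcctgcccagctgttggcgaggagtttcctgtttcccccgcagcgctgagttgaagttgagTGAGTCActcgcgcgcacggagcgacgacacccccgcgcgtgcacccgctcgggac
SMAD3, the fifth of its 5 listed starts, plus strand, chr15:67166281-67166580, with 4 matches to CAGAC: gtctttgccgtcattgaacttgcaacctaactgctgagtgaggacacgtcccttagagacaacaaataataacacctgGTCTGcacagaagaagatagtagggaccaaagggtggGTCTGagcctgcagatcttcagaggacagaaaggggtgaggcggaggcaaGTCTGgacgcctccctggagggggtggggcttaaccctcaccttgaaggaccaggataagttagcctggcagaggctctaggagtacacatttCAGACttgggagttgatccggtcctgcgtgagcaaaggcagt
Which start these cells use cannot be read from gene counts.

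The other genes of the pathway were looked up by role in 7 lists. Of 73 symbols 64 had a row, and of these 18 were called higher and 4 lower in L1low cells over 5 libraries, against 7.57% of all genes called in either direction. Over 6 libraries 20 were called higher and 3 lower. The total of 22 calls fell to 13 without L1low replicate 2 and stayed at 22 without L1low replicate 1 or 3.

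Of 5 further ligand genes of the TGF-beta and activin branch 1 was called, INHBB, which encodes an activin subunit (log2 fold change 0.60, adjusted p = 0.047), at 4.43, 4.58 and 4.995 CPM in L1high and 6.50, 7.35 and 6.55 in L1low libraries. Among 9 further receptors and co-receptors NRP1, a co-receptor that binds TGF-beta among other ligands, was called higher (0.68, adjusted p = 0.0032), from 13.8, 13.5 and 13.7 CPM to 22.8, 22.4 and 20.3. Of the 4 other SMAD genes SMAD6, the second inhibitory SMAD, rose (0.84, adjusted p = 0.015), while none of SMAD1, SMAD5 and SMAD9, which act downstream of BMP receptors, was called. Both inhibitory SMAD genes were thus called higher, with no overlap between the groups.

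Of 17 genes for regulators of SMADs and their ligands 4 were called, each higher. FST, which encodes the activin-binding protein follistatin, had a log2 fold change of 0.67, TGIF2 and TGIF1, corepressors of SMADs, 0.38 and 0.28, and NEDD4L, a ubiquitin ligase that targets SMADs, 0.34. Of 9 genes for latency and activation of TGF-beta 5 were called higher and 1 lower. The largest rises were those of THBS1, a matrix protein that can activate latent TGF-beta (1.17), and LTBP4, a latent TGF-beta binding protein (0.79). ITGB8, the gene of an integrin chain that activates latent TGF-beta, fell by 0.62 on the log2 scale over 5 libraries (adjusted p = 0.013) and was not called over 6 (adjusted p = 0.059). ITGB6, another integrin chain that activates latent TGF-beta, named after its values were seen, was called higher over 5 libraries (0.695, adjusted p = 0.0025) and over 6 (0.76, adjusted p = 0.0012).

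Of 15 genes that TGF-beta is known to induce 6 were called higher and 1 lower, with a median log2 fold change of 0.32. CCN2, a matricellular growth factor gene, rose most (1.88), from 19.1, 23.4 and 21.3 CPM in L1high to 77.2, 76.8 and 79.1 in L1low libraries, and NEDD9, a scaffold protein of focal adhesions, followed (1.27). TGFBI (1.13), ANGPTL4 (0.85) and PTHLH (0.65), named after their values were seen, were also called higher. SNAI1, which encodes a repressor of E-cadherin, fell by 0.93 on the log2 scale (adjusted p = 0.0039), with 11.03, 9.39 and 11.4 CPM in L1high and 5.89, 4.57 and 5.48 in L1low libraries. The list therefore did not move one way. Of 5 genes that TGF-beta represses in epithelial cells, ID3, a DNA-binding inhibitor, fell by 0.53 and CDC25A, a cell cycle phosphatase, by 0.46 on the log2 scale. ID1 (log2 fold change 0.29, adjusted p = 0.098), MYC (0.07) and ID2 (-0.13) were not called, so this list did not move one way either.

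**Figure D3:**
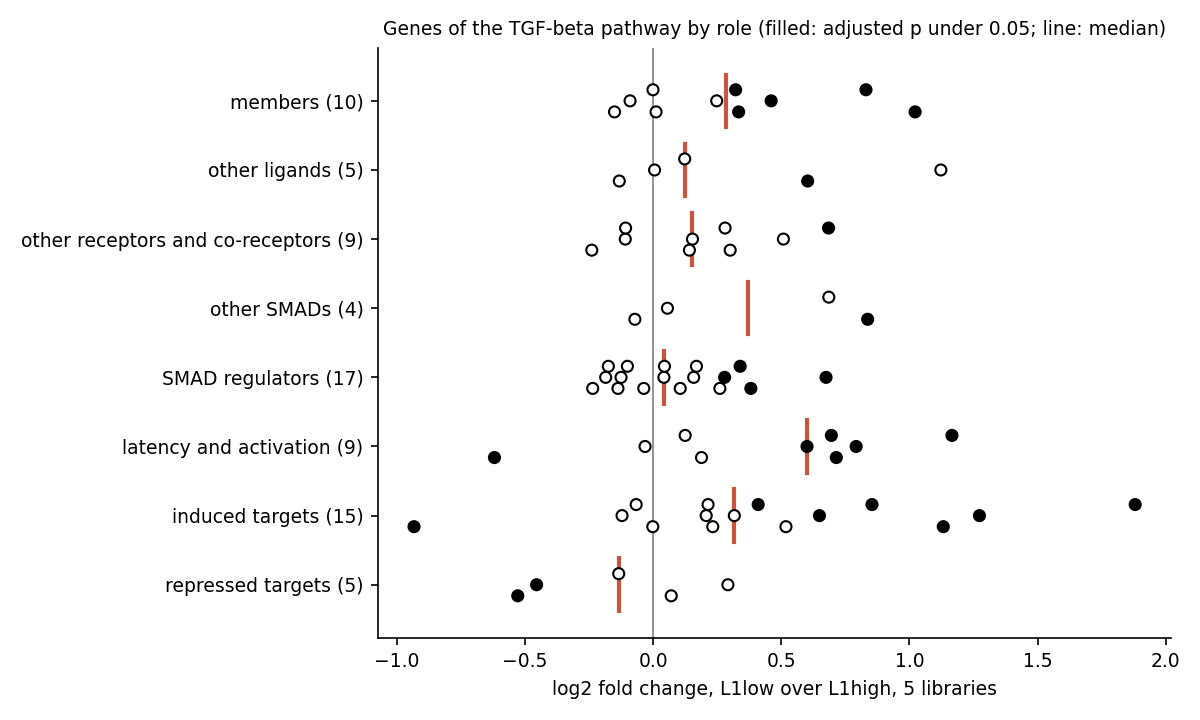
Log2 fold change of L1low over L1high cells over 5 libraries (horizontal axis) for the 10 members and the 64 other pathway genes by role, with the number of genes in brackets, filled points at an adjusted p under 0.05 and a red line at each median. In each of the lists drawn except the repressed targets at least 1 gene was called higher, and lower calls were those of ITGB8, SNAI1, ID3 and CDC25A.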

How the data were processed

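Libraries were made from RNA of sorted L3.6pl cells, 3 per fraction. The authors aligned paired-end reads to GRCh38 with BWA, which does not place reads across splice junctions, and assigned them to genes of Ensembl 94 by featureCounts. The deposited values are these read counts, not normalized, with low genes removed. Versions and strand options are not given in the sources used here. From the counts, both fractions were compared in edgeR 4.0.16 under R 4.3.3 (TMM, filterByExpr, quasi-likelihood test, Benjamini-Hochberg over 19469 genes, calls under 0.05). The standard error is the log2 fold change divided by the square root of F. The 17 other settings covered all 6 libraries, single libraries left out, a block for replicate number, DESeq2 1.42.0, the exact test of edgeR, other scalings (RLE, upper quartile, totals) and other filters (none, or 10 counts in every library). The setting with no filter repeated the main fit, and leaving L1high replicate 1 or 2 out of the 5 libraries left a single L1high library. In a simulation of the 5 libraries, 200 of 19469 genes were given a log2 change of 1: 182 (91%) were recovered, and 7 of 189 calls were unchanged genes. All genes were simulated with the same biological coefficient of variation (0.088) and no effect of replicate number. A change of 1 is larger than that of every member but SMAD7, so the recovery of smaller changes was not tested. Annotation was GENCODE 44 (19344 identifiers matched) and promoters were RefSeq's. Shared exonic bases are those of GENCODE 44, not of Ensembl 94, by which the authors assigned reads. Named genes are the members, the called genes of each list (beyond 4 calls, the 2 largest rises and 2 largest falls) and genes overlapping a member; others are marked as named after their values were seen. The members and lists were chosen with earlier results of these data known, and the count ratios, the lowest replicate and the lengths of canonical transcripts were examined after the levels were seen.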

Additional observations from a re-analysis of the deposited data

How the results depend on the processing

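Of 306 values, 18 results under 17 alternatives, 260 neither changed sign, crossed the threshold nor moved beyond the limits set for them. Leaving out single libraries gave 2 to 6 called members, all higher (main value 5), 389 to 1649 called genes, of which 251 to 941 were higher, and 11 to 22 called pathway genes. Over the 6 libraries without L1high replicate 1 there were 3 called members, 674 called genes and 425 called higher. Omitting a library leaves fewer samples. There were 551 called genes without L1low replicate 2, and 1638 and 1649 without L1low replicates 1 and 3, against 1473 in the main fit. The cause of these shifts was not tested. Of the 5 members not called, TGFB2, TGFBR1 and SMAD4 changed sign under some alternatives, and SMAD2 and SKIL did not. For TGFBR1 the log2 fold change was 0.067 over 6 libraries, 0.069 and 0.15 over these without L1high replicate 1 and 2, and -0.073 to 0.074 when a library was left out of the 5. For SMAD4 it was 0.0029 over 6 libraries, and 0.073 and 0.044 without those replicates. For TGFB2 it was -0.080 to 0.11 when a library was left out of the 5, and -0.0074 with library totals only. Over the 6 libraries without L1high replicate 1 and 2 the value for TGFB2 was 0.11 and 0.21. SKIL was called in 2 of the alternatives that left more than a single L1high library, and its range over the 17 was 0.07 to 0.51. Same-numbered libraries correlated with r of 0.12, 0.097 and 0.29, and L1high replicate 2 correlated slightly better with L1low replicate 1 (0.11), so the numbers were not taken as pairs. Replicate 3 of each group correlated negatively with replicates 1 and 2 of the other group (-0.20 to -0.15). With the replicate block 2363 genes were called over 6 libraries, against 1548 without the block. In the fits with the block TGFBR1 stood at 0.070 over 6 and 0.072 over 5, and SMAD4 at 0.0093 over 6. With the replicate block over 5 libraries SKIL was called (0.47, adjusted p = 0.0086) and TGFB1 was not (0.27, adjusted p = 0.077). The default filter removed no gene over 5 libraries, so its omission tested nothing, and the values of that setting count among the 260 by construction. DESeq2 called 1506 genes and the exact test 2071, each with 5 members. SMAD7, with 73 to 165 counts per library, is the member most limited by depth.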

Other observations

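Several genes of the activin and betaglycan side of the pathway lay near the threshold, and these are named after their values were seen. INHBE, the gene of an activin subunit, stood at 0.85, 0.58 and 0.73 CPM in L1high and at 1.43, 1.62 and 1.64 in L1low libraries, without overlap (log2 fold change 1.12, adjusted p = 0.068 over 5 libraries in edgeR's quasi-likelihood test, and 1.11, adjusted p = 0.036 over 6). TGFBR3, which encodes the co-receptor betaglycan, stood at 6.60, 6.38 and 6.46 CPM in L1high and at 9.47, 10.3 and 7.79 in L1low libraries (0.51, adjusted p = 0.081 over 5 libraries, and 0.501, adjusted p = 0.047 over 6). Both were called only in the fit over 6 libraries of these 2 fits.

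The locus of TGFB1 holds other genes on the opposite strand that share no exonic bases with it. ENSG00000255730 was called higher in L1low cells (log2 fold change 0.42, adjusted p = 0.011), and CCDC97 had a log2 fold change of 0.27 (adjusted p = 0.052 over 5 libraries and 0.033 over 6).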
